A study of Mus musculus with 14 samples.

Results

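The genes of cholesterol synthesis and of the sterol-sensing circuit that governs it were followed in the ileum mucosa, 27 genes in all, taken by symbol from the 54532 genes of the deposited count table. Of these, 20 encode enzymes of the route from acetyl-CoA to cholesterol and, for Ggps1, of its prenyl branch. The other 7, called the circuit genes, encode SREBP2 itself, the proteins that hold, escort or cut it and, for Stard4, a carrier of sterol between membranes. All 27 were found, and all 27 had enough counts to be tested. RNA was scraped with the mucosa of 14 male mice, 7 WT and 7 IKO, with 1 library per mouse. Both genotypes carried NCoR1 flox/flox, and IKO mice also carried Cre recombinase under the villin promoter, which acts in intestinal epithelial cells and leaves the gene intact in the other cells of the mucosa. The mice were put on a HFD with 60% of kcal from fat at 7 to 8 weeks of age, and they were kept on it for 15 weeks. This is the age given in the methods, and a later age at the change of diet is also stated. NCoR1 is a corepressor that nuclear receptors use to keep target genes silent.

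Cholesterol is made in the cytosol and endoplasmic reticulum from acetyl-CoA by way of mevalonate, farnesyl diphosphate, squalene and lanosterol. When sterol is plentiful, INSIG proteins hold the escort protein SCAP, and with it the precursor of SREBP2, in the endoplasmic reticulum. When sterol is scarce, SCAP carries SREBP2 to the Golgi, where the site-1 and site-2 proteases, encoded by Mbtps1 and Mbtps2, cut it and set free a transcription factor that turns on the synthesis enzymes, Insig1 and its own gene. The enterocytes of the ileum both absorb sterol from the lumen and make their own. Most of the control acts on proteins, which RNA counts do not show.

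Between 14749669 and 21557468 reads were counted on genes per library. Ncor1, the targeted gene, fell from 134.7 ± 31.3 CPM (SD, n = 7) in WT to 50.6 ± 10.97 CPM (SD, n = 7) in IKO mice, with all 7 IKO below all 7 WT libraries. CPM are counts put on a common library size after TMM scaling. The share of mitochondrially encoded counts was 50.3% in IKO 4, 23.9% in WT 3 and 3.49% to 10.3% in the other libraries. WT 4 held 10855 CPM of 6 smooth muscle genes, where the WT median was 22.6 CPM and the highest IKO library, IKO 1, had 796 CPM, and all 6 had a log2 fold change below 0 with a median of -3.10 and none passing. Summed markers of epithelium, 6 genes from Vil1 to Krt20, ran from 9579 to 17056 CPM in WT and from 14939 to 19770 CPM in IKO libraries, and 6 crypt and proliferation genes from 146 to 421 CPM in WT and from 156 to 288 CPM in IKO libraries. Summed markers of ileal enterocytes, 6 genes from Fabp6 to Anpep, ran from 10757 to 21848 CPM in WT and from 12312 to 33853 CPM in IKO libraries, with 5 of 7 IKO libraries above the highest WT library, 4 of the 6 genes above 0 and a median log2 fold change of 0.64. No gene of these 3 lists passed the test, 1 of the 6 epithelial, 0 of the 6 ileal enterocyte and 3 of the 6 crypt genes had an unadjusted p under 0.05, and none was at 0 over a genotype. All 5 stromal and endothelial genes and 5 of 6 immune genes had a log2 fold change below 0, with sums of 7.64 to 246 and 2297 to 2828 CPM in WT and of 8.44 to 33.2 and 1609 to 3610 CPM in IKO libraries. None of them passed, 4 and 3 had an unadjusted p under 0.05, and their part in the levels below was not tested. Over all 13846 genes tested, 4213 had an unadjusted p under 0.05. In RNA of a whole mucosa, fewer cells of a type and less RNA per cell cannot be told apart.

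Of the 27 genes, 11 were higher in IKO mice and 0 were lower at a Benjamini-Hochberg adjusted p below 0.05 in edgeR's quasi-likelihood test, and 15 had an unadjusted p under 0.05. Among all 13846 genes tested, 4.38% were higher and 4.28% lower, 8.67% in either direction, and 4213 had an unadjusted p under 0.05. The log2 fold change was above 0 for 23 of the 27, where 43.5% of all genes lay above 0 and the median of all genes was -0.09. Among the enzymes 9 of 20 were higher, with a median log2 fold change of 0.99, and among the circuit genes 2 of 7, with a median of 0.22. All 7 IKO libraries lay above all 7 WT libraries for Acat2, Pmvk, Fdft1, Nsdhl and Insig2, 5 of the 27 genes, against 1.83% of all genes. This holds for CPM after TMM scaling. The TMM factors ran from 0.93 to 1.53 in WT and from 0.58 to 0.97 in IKO libraries, so the separation depends on that scaling. The fold changes of the called genes ran from 1.77 for Mvk to 2.97 for Insig1.

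Other ways of processing the counts gave other splits over all genes. Of 1200 genes called, 607 were higher and 593 lower, and with RLE scaling in place of TMM 689 were higher and 531 lower. After the trend of each library with the GC content and length of transcripts was removed, a step added after the data were seen, 790 were higher and 367 lower, and in limma on log2(FPKM + 1) 708 were higher and 328 lower. The median log2 fold change of all genes was -0.09, and it was -0.06 with RLE scaling, 0.0009 with the trend removed and 0.02 in limma, which tested 12165 genes. The enzymes called were 12 of 20 with the GC and length trend removed and 9 of 19 tested in limma on the FPKM scale, all of them higher, where 5.71% and 5.82% of all genes were higher. With the trend removed, the 3 enzymes gained were Cyp51, Msmo1 and Hsd17b7. Without IKO 4 and WT 3, 10 enzymes were called, and without IKO 4 and WT 4, 9, where 3.06% and 2.85% of all genes were higher. Without WT 1 alone 11 enzymes were called, without IKO 4 also 11, and 6 without IKO 5, where 2.94%, 3.7% and 2.37% of all genes were higher. DESeq2 called 11 enzymes and 7.62% of all genes as higher, edgeR without a filter on low counts 7 enzymes and 1.19%, and edgeR with the mouse number as a block 5 enzymes and 1.63%. All 6 epithelial markers had a log2 fold change above 0 (0.16 to 0.53), the ileal enterocyte markers ran from -0.46 to 1.08 and 5 of the 6 crypt genes lay below 0, and the part of these lists in the enzyme levels was not tested.

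**Figure D1:**
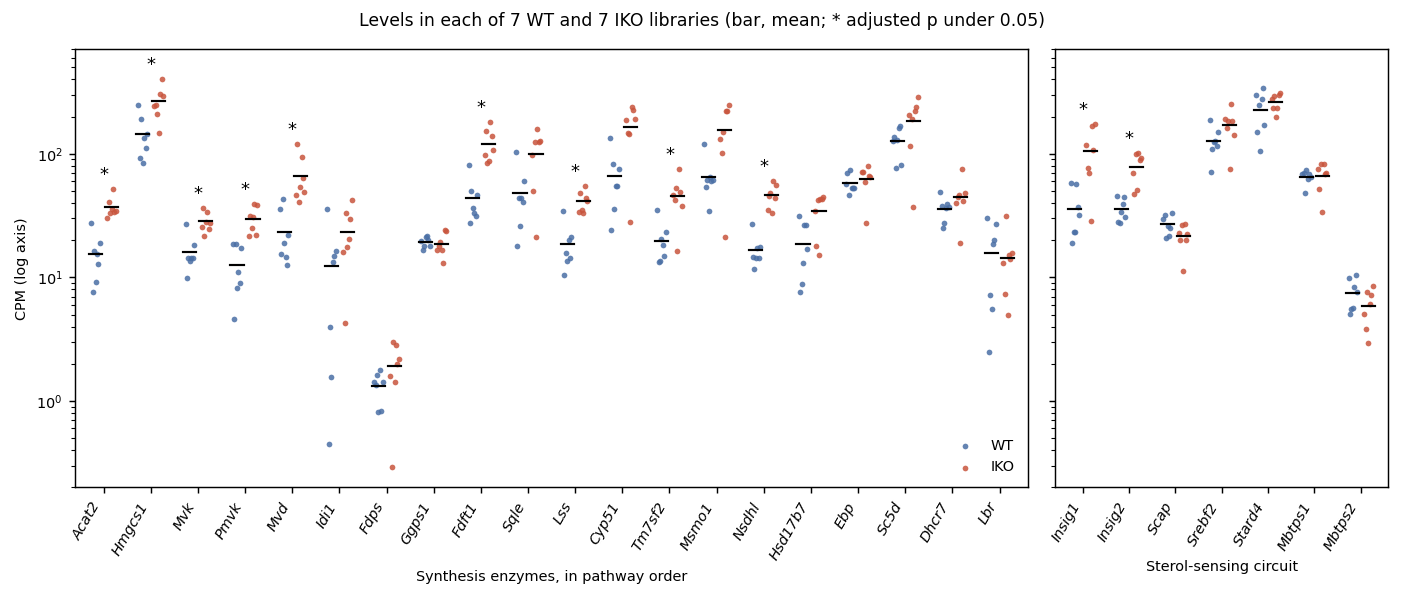
CPM on a log axis of the 20 synthesis enzymes, left, and of the 7 circuit genes, right, with 1 point per library (blue, 7 WT; red, 7 IKO), a black bar at the mean and a star at an adjusted p under 0.05. For Acat2, Pmvk, Fdft1, Nsdhl and Insig2 the lowest IKO point lies above the highest WT point, and for Sqle, Cyp51, Msmo1 and Sc5d 1 red point, IKO 4, lies far under the others.

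SREBP2 binds sterol response elements, short DNA motifs found close to the start of its target genes, and often acts beside NF-Y, which binds CCAAT boxes. The bases just before the start of 23 of the 27 genes were read from RefSeq promoters of GRCm38.p6, 29 starts in all, with no entry for Fdps, Fdft1, Sqle and Stard4. Both strands of the 250 bases before each start were searched for TCACNCCAC, its shorter core CACNCCAC, which every match of the longer one holds, and ATTGG, the CCAAT box read on the other strand. The promoters of Hmgcs1, Acat2 and Insig1 are shown because they held the element or its core, and those of Nsdhl and Insig2 as examples that held neither before genes whose levels did not overlap between the genotypes. Pmvk, another such gene, held neither as well and is not printed. Capitals mark the sterol response element or its core and the CCAAT box in either orientation. Bases that the count table places inside the gene were left off, except for Insig1, where the site of 30 bases lies before the RefSeq start but inside the gene as the count table bounds it. Each sequence is written 5′ to 3′ on the strand of the gene.
Hmgcs1, + strand, chr13:119690151-119690350: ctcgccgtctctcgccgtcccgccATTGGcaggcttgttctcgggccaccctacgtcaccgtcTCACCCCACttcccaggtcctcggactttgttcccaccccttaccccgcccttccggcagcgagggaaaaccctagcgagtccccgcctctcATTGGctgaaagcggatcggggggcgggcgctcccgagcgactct
Acat2, - strand, chr17:12960748-12960925: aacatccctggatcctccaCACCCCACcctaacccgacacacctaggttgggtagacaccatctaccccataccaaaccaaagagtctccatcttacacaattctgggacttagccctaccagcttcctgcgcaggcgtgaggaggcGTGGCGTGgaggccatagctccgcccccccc
Insig1, + strand, chr5:28071382-28071411: gggcgcggtacgtgtagtgtcGTGGCGTGt
Nsdhl, + strand, chrX:72918321-72918520: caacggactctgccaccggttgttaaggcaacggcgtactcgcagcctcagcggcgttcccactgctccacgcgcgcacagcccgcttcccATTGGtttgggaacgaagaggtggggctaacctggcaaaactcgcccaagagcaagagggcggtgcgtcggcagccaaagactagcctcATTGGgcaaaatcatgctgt
Insig2, - strand, chr1:121332590-121332789: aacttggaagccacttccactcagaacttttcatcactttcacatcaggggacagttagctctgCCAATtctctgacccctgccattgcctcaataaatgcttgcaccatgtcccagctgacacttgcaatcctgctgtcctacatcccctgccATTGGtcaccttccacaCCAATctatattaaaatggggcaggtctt

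The full element was found before Hmgcs1 alone, starting 137 bases before the start, and 1.05% of 32851 mouse promoters of the same length held it. The core was found before Acat2, Hmgcs1 and Insig1, 3 of the 29 starts or 10.3%, where 5.29% of all promoters and 5.40% of the promoters of tested genes held it. ATTGG stood before 19 of the 29 starts or 65.5%, against 35.2% of the starts of tested genes. For GGGCGG, the letters that SP1 binds, the shares were 75.9% and 55.8%. Insig2 has 3 starts in RefSeq, and the one shown is the farthest upstream. The others held no CCAAT box, and which start is used in the ileum was not tested. A match gives only the letters, and a window without one says nothing of SREBP2 at these genes.

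The enzymes that lead from acetyl-CoA to mevalonate and its phosphates were higher in IKO mice for each of the 5 genes. Acat2, on chromosome 17 from 12942890 to 12960747, encodes the thiolase that joins acetyl-CoA units, and its level ran from 7.60 to 27.4 CPM with a median of 15.4 in WT and from 30.1 to 52.1 CPM with a median of 34.7 in IKO libraries. The genotypes did not overlap, and the log2 fold change was 1.27 with a standard error (SE) of 0.25 (adjusted p = 0.0084). Hmgcs1, which makes HMG-CoA, had the highest level per length among the enzymes in WT mice, 30.6 ± 12.3 FPKM (SD, n = 7), within the spread of Sc5d at 25.3 ± 7.4 FPKM (SD, n = 7). Its counts ran from 85.0 to 248 CPM with a median of 135 in WT and from 148 to 403 CPM with a median of 248 in IKO libraries. Only 3 of 7 IKO libraries lay above WT 1, the highest WT library, and the log2 fold change of 0.88 (SE 0.26, adjusted p = 0.049) was past the threshold in 9 of 26 alternative fits.

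Mevalonate kinase, Mvk, had a median of 14.3 CPM in WT and 27.6 CPM in IKO libraries, with 4 IKO libraries above WT 1 (log2 fold change 0.82, adjusted p = 0.024). For Pmvk, phosphomevalonate kinase, the values ran from 4.57 to 18.7 CPM with a median of 11.04 in WT and from 21.8 to 39.2 CPM with a median of 30.7 in IKO libraries. These ranges did not overlap (log2 fold change 1.26, SE 0.28, adjusted p = 0.017). Mvd, the decarboxylase that closes the mevalonate part, rose from 23.2 ± 11.7 CPM (SD, n = 7) to 66.7 ± 29.1 CPM (SD, n = 7), a log2 fold change of 1.52 (SE 0.32, adjusted p = 0.012), and 6 of 7 IKO libraries lay above the highest WT library, here WT 3.

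The isoprenyl steps that follow did not pass the test. Idi1, the isomerase that makes dimethylallyl diphosphate, varied most within a genotype. Its level was 35.5 CPM in WT 1, 13.4 to 16.4 CPM in WT 5, WT 6 and WT 7, 3.94 CPM in WT 3, 1.57 CPM in WT 4 and 0.45 CPM in WT 2, a range of 78.7-fold. Among IKO libraries it ran from 4.24 CPM in IKO 2 to 42.3 CPM in IKO 7, with a median of 20.4. With this spread the log2 fold change of 0.92 had a 95% confidence interval from -0.51 to 2.35. WT 2, WT 3, WT 4 and IKO 2 were the 4 libraries lowest in Idi1. In these, deviations of all genes from their genotype mean rose with the GC content of the transcript, fitted together with length. The slopes were 0.18, 0.11, 0.32 and 0.28 log2 units per 10 points of GC, and WT and IKO slopes have different baselines. Such slopes of 0.11 to 0.23 were also seen in IKO 1, IKO 4 and IKO 5, where Idi1 lay at 16.2 to 20.4 CPM. The longest Idi1 transcript held 41.9% GC. Lbr, at 44.2%, was low in the same 4 libraries (2.51 to 7.31 CPM), as in IKO 4 (4.92 CPM). Ggps1, at 40.1%, lay at 16.7 CPM in WT 2 and 21.4 CPM in WT 4, with a WT median of 19.5. Sc5d, at 42.9%, lay at 138, 76.2 and 129 CPM in WT 2, WT 3 and WT 4, with a WT median of 129. The part of this slope in the Idi1 level was not tested beyond the fit with the trend removed, where its log2 fold change was 1.14 (adjusted p = 0.24).

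Fdps, farnesyl diphosphate synthase, held only 188 counts over the WT and 225 over the IKO libraries, 0.31 ± 0.09 FPKM (SD, n = 7) in WT mice. It overlaps another annotated gene, Gm43738, on the same strand, which was listed at 0 counts, and whether reads shared by both were dropped is not stated, so this level is uncertain. Ggps1, which makes geranylgeranyl diphosphate for protein prenylation, stood at 19.3 ± 1.9 CPM (SD, n = 7) in WT and 18.8 ± 4.0 CPM (SD, n = 7) in IKO mice. Its WT range of 1.29-fold was the narrowest of the 27 genes, and the interval of its log2 fold change ran from -0.36 to 0.28. The log2 fold change was -0.04, and its sign turned to 0.35 (adjusted p = 0.080) after the GC and length trend was removed. Ggps1 overlaps Arid4b on the opposite strand, a gene with 4441 counts in WT and 2027 in IKO libraries.

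**Figure D2:**
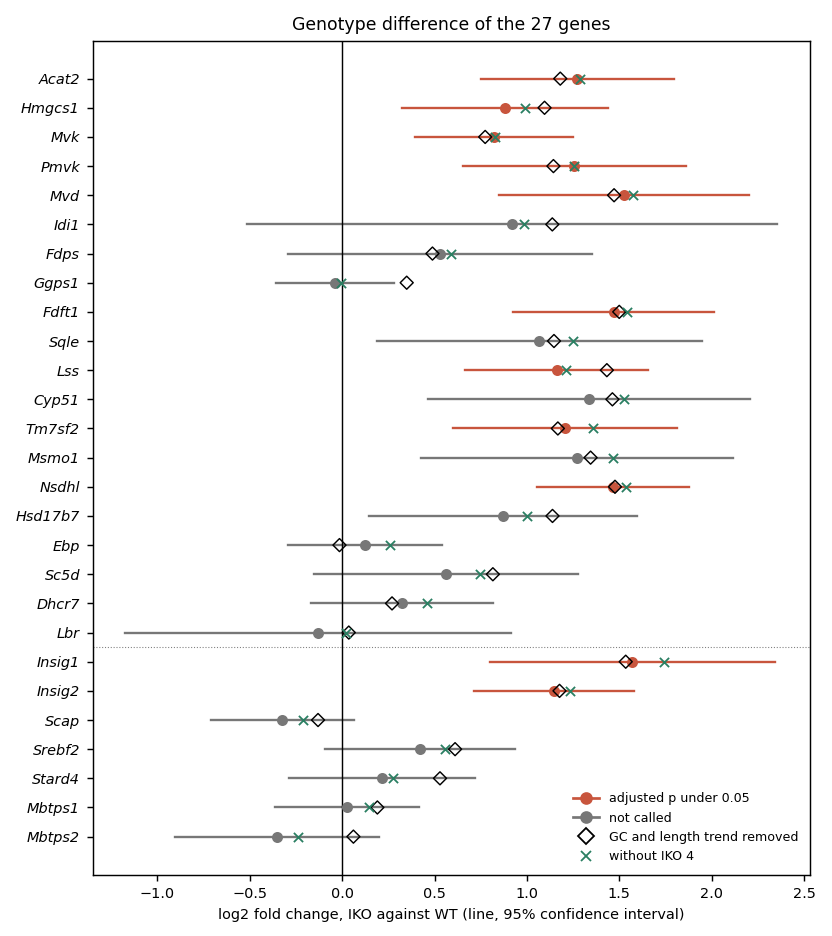
Log2 fold change of IKO against WT with its 95% confidence interval for the 27 genes in pathway order, the circuit genes under the dotted line (red, adjusted p under 0.05; grey, not called), with open diamonds for the fit with the GC and length trend removed and green crosses for the fit without IKO 4. The 11 red intervals all lie above 0, while Ggps1, Ebp, Lbr and Mbtps2 change sign between fits.

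Squalene synthase, Fdft1, commits farnesyl diphosphate to sterols. It ran from 27.4 to 81.6 CPM with a median of 36.3 in WT and from 83.7 to 180 CPM with a median of 108 in IKO libraries. The ranges did not overlap, with WT 1 at the top of the WT range just under IKO 3 (log2 fold change 1.47, SE 0.26, adjusted p = 0.0049). Fdft1 overlaps Ctsb on the opposite strand, a gene with 55604 counts in WT and 65434 in IKO libraries, and whether the counting used strand is not stated. Lss, which closes lanosterol from squalene epoxide, rose from a median of 15.8 to 41.3 CPM, with 5 of 7 IKO libraries above WT 1 (log2 fold change 1.16, SE 0.23, adjusted p = 0.0096).

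Sqle, squalene epoxidase, is a slow and tightly controlled step that lies between Fdft1 and Lss. Its level ran from 18.0 to 104 CPM with a median of 43.7 in WT and from 21.2 CPM in IKO 4 to 160 CPM with a median of 124 in IKO libraries. Here 4 of 7 IKO libraries lay above WT 1 and IKO 4 lay near the WT minimum (log2 fold change 1.07, 95% confidence interval 0.19 to 1.95, adjusted p = 0.10). In none of 26 alternative fits did Sqle pass, and without IKO 4 its adjusted p was 0.051.

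From lanosterol onward the called genes were Tm7sf2 and Nsdhl. Tm7sf2, a sterol C14 reductase, rose from a median of 18.4 to 46.0 CPM (log2 fold change 1.21, SE 0.29, adjusted p = 0.021), and 6 of 7 IKO libraries lay above the highest WT value, all but IKO 4 at 16.3 CPM. It shares a strand with the overlapping Vps51, which held 407 counts in WT and 336 in IKO libraries. Nsdhl, on the X chromosome from 72918557 to 72958514, acts in the removal of the C4 methyl groups and had the smallest adjusted p of the 27 genes. It ran from 11.6 to 26.9 CPM with a median of 14.6 in WT and from 33.3 to 60.3 CPM with a median of 46.0 in IKO libraries. No IKO library reached down to WT 1 (log2 fold change 1.47, SE 0.19, adjusted p = 0.00057), and all 26 alternative fits called it. Its promoter, printed above, held 2 CCAAT boxes and no sterol response element.

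Cyp51, the lanosterol demethylase, and Msmo1, the C4 methyl oxidase that works beside Nsdhl, had fold changes of similar size without passing. Cyp51 ran from 24.0 to 133 CPM with a median of 54.6 in WT and from 28.0 to 240 CPM with a median of 189 in IKO libraries. Apart from IKO 4, every IKO library lay above every WT library (log2 fold change 1.34, SE 0.41, adjusted p = 0.053). Msmo1 ran from 34.6 to 119 CPM with a median of 61.2 in WT and from 21.1 to 247 CPM with a median of 151 in IKO libraries (log2 fold change 1.27, SE 0.40, adjusted p = 0.056). Without IKO 4 both passed, with log2 fold changes of 1.53 and 1.47 and adjusted p values of 0.015 and 0.0079. Cyp51 overlaps Akap9 on the opposite strand, with 20677 counts in WT and 17759 in IKO libraries.

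Hsd17b7, the C3 ketoreductase, had a median of 17.1 CPM in WT and 42.0 CPM in IKO libraries with a log2 fold change of 0.87 (SE 0.34, adjusted p = 0.11), and it passed only in the fit with the GC and length trend removed, at 1.14 (adjusted p = 0.020). The last steps did not pass. Ebp, the sterol isomerase, had a log2 fold change of 0.13 with an interval from -0.29 to 0.54, and -0.014 with the GC and length trend removed. Sc5d, the C5 desaturase, had 0.56 (-0.15 to 1.28), and Dhcr7, which makes cholesterol from 7-dehydrocholesterol, 0.32 (-0.17 to 0.82). Lbr, a nuclear envelope protein with the same reductase activity as Tm7sf2, had -0.13 (-1.17 to 0.91), and its sign turned to 0.025 on the FPKM scale and 0.036 with the trend removed. The upper bound for Ebp lay under the log2 fold change of every called gene, and those for Sc5d and Lbr did not. For Dhcr7 it was 0.817, just under 0.821 for Mvk, the smallest among called genes, whose own interval started at 0.39. Without IKO 4 the log2 fold change of Dhcr7 was 0.46.

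In the sterol-sensing circuit the genes of both INSIG proteins, the brakes of the pathway, rose and the other 5 genes did not pass. Insig1, on chromosome 5 from 28071363 to 28078662, ran from 19.1 to 57.8 CPM with a median of 32.0 in WT and from 28.9 to 174 CPM with a median of 107 in IKO libraries. All IKO libraries but IKO 4 lay above the highest WT library, and the log2 fold change was 1.57 (SE 0.36, adjusted p = 0.019). Insig2 is not under the control of SREBP as Insig1 is, and in liver it has another transcript that insulin lowers. In these libraries it ran from 27.4 to 45.7 CPM with a median of 33.8 in WT and from 47.3 to 101 CPM with a median of 88.9 in IKO libraries. The ranges did not overlap, and IKO 4, at 51.2 CPM, was above all WT libraries as well (log2 fold change 1.15, SE 0.20, adjusted p = 0.0055).

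Srebf2 itself ran from 71.6 to 189 CPM with a median of 125 in WT and from 75.7 to 254 CPM with a median of 183 in IKO libraries, and 6 of 7 IKO libraries lay above the WT median. Its log2 fold change was 0.42 with an interval from -0.09 to 0.94 (adjusted p = 0.25). The RNA level of the escort protein gene Scap was 26.9 ± 4.8 CPM (SD, n = 7) in WT and 21.5 ± 5.2 CPM (SD, n = 7) in IKO mice, with an interval of -0.71 to 0.06 on the log2 scale. Mbtps1, with 65.2 ± 8.3 CPM (SD, n = 7) in WT and 66.4 ± 17.8 CPM (SD, n = 7) in IKO mice, had an interval from -0.36 to 0.42. Mbtps2 stood at 7.54 ± 2.17 CPM (SD, n = 7) and 5.89 ± 2.04 CPM (SD, n = 7), with a log2 fold change of -0.35 that was 0.06 when the GC and length trend was removed. Stard4, which carries sterol between membranes and is an SREBP2 target, had the highest level per length of the 27 genes in WT mice, 39.9 ± 15.4 FPKM (SD, n = 7), and 47.4 ± 7.2 FPKM (SD, n = 7) in IKO mice. Its log2 fold change was 0.22 (-0.29 to 0.72).

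The spread between mice of 1 genotype ran through the pathway. WT 1 was the highest WT library for 15 of the 20 enzymes and WT 2 the lowest for 12. Among IKO libraries IKO 5 was highest for 10 enzymes and IKO 4 lowest for 12. The drop in IKO 4 was uneven along the pathway. Against the mean of the other 6 IKO libraries on the log2 scale, it was -3.01 for Msmo1, -2.73 for Cyp51, -2.44 for Sc5d, -2.33 for Sqle and -1.95 for Insig1. Over the first steps it was -0.05 for Acat2, -0.91 for Hmgcs1, 0.01 for Mvk, 0.09 for Pmvk and -0.24 for Mvd, and Nsdhl, Fdft1 and Lss, which lie among the later steps, had -0.51, -0.49 and -0.35. IKO 4 is the library with 50.3% mitochondrially encoded counts, and the part of this in its enzyme levels was not tested. With those genes taken out of the libraries, 9 of the 20 enzymes were called, where 4.52% of all genes were higher.

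**Figure D3:**
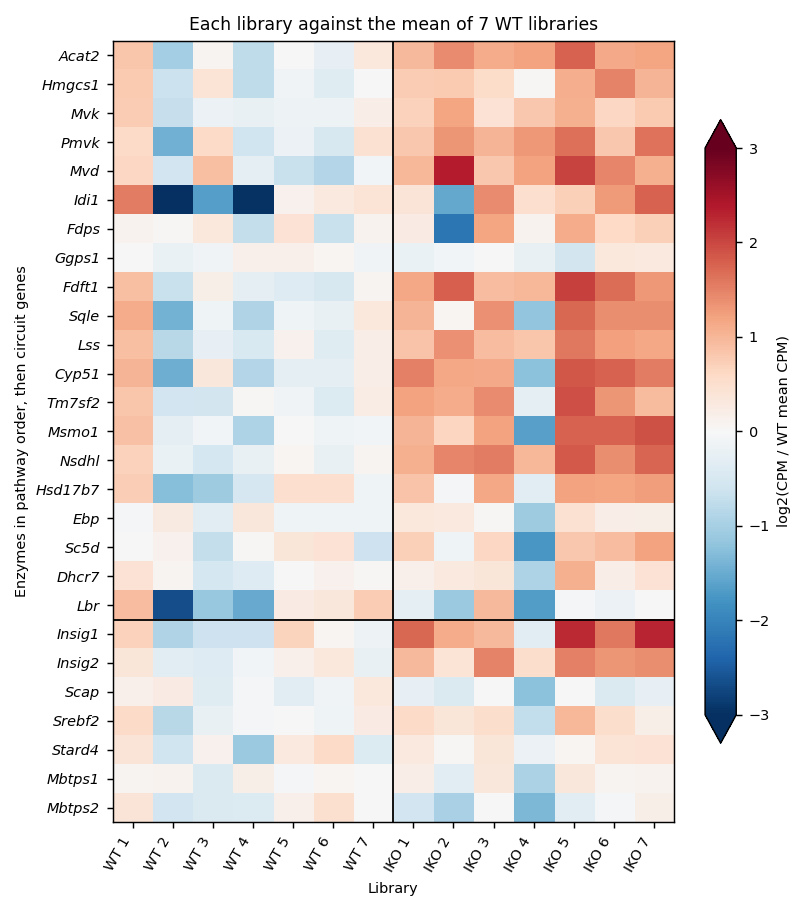
Heat map of log2(CPM / mean CPM of the 7 WT libraries) for the 27 genes (rows, in pathway order with the circuit genes under the black line) in the 14 libraries (columns), cut at -3 and 3. IKO libraries are red across most enzymes, WT 1 is the reddest and WT 2 the bluest WT column, and the IKO 4 column turns blue at Sqle, Cyp51, Msmo1 and Sc5d and stays red at Acat2, Pmvk and Mvd.

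To ask whether the enzymes followed the circuit genes from mouse to mouse, log2 levels were centred on the mean of their genotype, so that the genotype difference plays no part, and the 20 enzymes were correlated with the 7 circuit genes. Of 140 pairs, 45 passed an adjusted p of 0.05 from 100000 permutations within genotype, all of them positive, 12 with Srebf2, 11 with Insig1, 7 with Insig2, 7 with Mbtps2, 5 with Mbtps1, 2 with Scap and 1 with Stard4. No share over pairs of other genes is given here, so how far these counts are particular to this pathway was not tested. The median r over the 20 enzymes was 0.65 for Srebf2, 0.64 for Insig1, 0.58 for Insig2, 0.57 for Mbtps2, 0.40 for Mbtps1, 0.35 for Stard4 and 0.33 for Scap. When IKO 4 was left out, 5 pairs passed. With Spearman's rho in place of r 10 pairs passed, and without the 2 libraries farthest from the median of each circuit gene 5. Within WT 22 pairs and within IKO 46 had an unadjusted p under 0.05 in exact permutation tests, and 0 passed after adjustment over the 140 in either genotype.

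Tm7sf2 and Srebf2 were the closest pair, with r = 0.95 and rho = 0.95 over 14 libraries (permutation p = 1e-05, the smallest they can give, adjusted 0.0014 for each), r = 0.88 within WT and 0.99 within IKO, and r = 0.96 without IKO 4 and WT 2, the libraries farthest from the median of Srebf2. Hsd17b7 followed both Mbtps2, with r = 0.93 and rho = 0.87 (permutation p = 2e-05 and 5e-05, adjusted 0.0014 and 0.0035), and Insig2, with r = 0.90 and rho = 0.80 (permutation p = 4e-05 and 0.0002, adjusted 0.0019 and 0.0070). Without the 2 farthest libraries r was 0.88 and 0.87 (permutation p = 0.00052 and 0.0013, adjusted 0.024 and 0.041). These 3 pairs also passed without IKO 4, as did Idi1 and Lbr with Mbtps2. For Msmo1 and Insig1, r was 0.85 and rho 0.86 over 14 libraries (permutation p = 0.00061 and 0.00025, adjusted 0.011 and 0.0070), and r was 0.68 without IKO 4 and IKO 7 (permutation p = 0.019, adjusted 0.19). Median r was above 0 within both genotypes for Srebf2 (0.77 within WT, 0.64 within IKO), Insig1 (0.63 and 0.63), Insig2 (0.53 and 0.64), Mbtps2 (0.595 and 0.65) and Stard4 (0.44 and 0.53). For Scap it was 0.002 within WT and 0.64 within IKO, and for Mbtps1 -0.07 and 0.62, and IKO 4 was the lowest IKO library for both genes. The difference between genotypes in these correlations was not tested. Libraries share their RNA quality and base composition across all genes, and after the GC and length trend was removed 32 pairs passed, among them 1 negative pair, Ggps1 and Scap (r = -0.80).

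**Figure D4:**
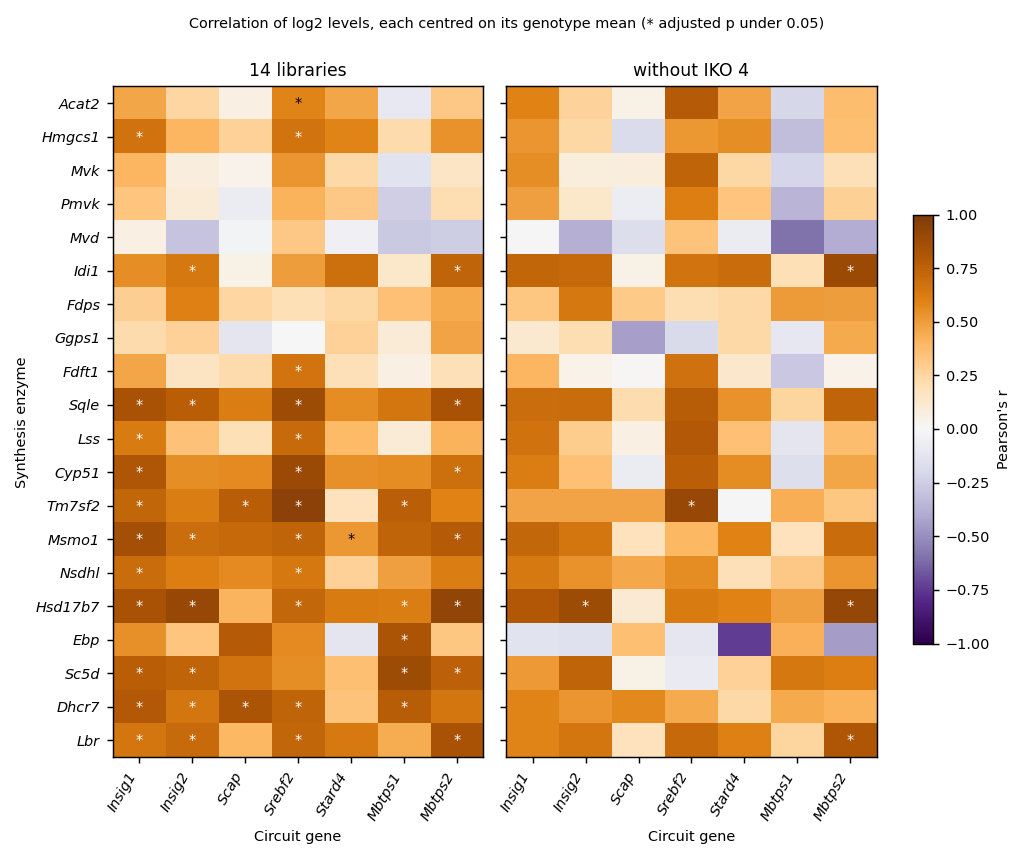
Pearson's r between log2 levels of the 20 enzymes (rows) and the 7 circuit genes (columns), each level centred on its genotype mean, over 14 libraries at left and without IKO 4 at right, with stars at an adjusted p under 0.05 over the 140 pairs. There are 45 stars at left and 5 at right.

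Among themselves the enzymes had a median r of 0.50 over 190 pairs, centred in the same way, with 167 pairs above 0. This is a description, since all pairs share the same libraries. Sqle was closest to the rest, with a median r of 0.67 to the other 19 enzymes, followed by Tm7sf2 and Lss with 0.63 each. Ggps1, which serves prenylation in place of sterols, had 0.04, and Mvd 0.19. For Acat2, Mvk and Pmvk the median was 0.82, 0.79 and 0.70 within WT and 0.16, 0.04 and -0.002 within IKO libraries. For Ebp and Sc5d it went the other way, from -0.42 and -0.14 within WT to 0.60 and 0.65 within IKO libraries, and these differences were not tested.

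Pairs of genes with related roles were compared as ratios of counts within a library, which the scaling of libraries leaves untouched. Exact two-sided permutation tests were used, adjusted over 5 ratios. Counts were not divided by gene length, so the size of a ratio does not say which transcript was more abundant. Only its change between genotypes can be read. Acat2 stood at 0.17 of Acat1, the mitochondrial thiolase of ketone metabolism, in the median WT library and at 0.44 in the median IKO library. The log2 difference of the ratio was 1.10 (exact permutation p = 0.0017, adjusted 0.0087), and 6 of 7 IKO libraries lay above the highest WT ratio. Srebf1, which encodes the SREBP of fatty acid synthesis, rose against Srebf2 by 1.09 on the log2 scale (exact permutation p = 0.0047, adjusted 0.012), from a median ratio of 0.69 to 1.23. WT 2, with a ratio of 1.58, was above 4 of the IKO libraries. The ratio of Tm7sf2 to Lbr differed by 1.07 without passing after adjustment (exact permutation p = 0.049, adjusted 0.082), with ratios from 0.75 to 5.33 in WT and from 1.69 to 5.82 in IKO libraries. The ratio of Insig1 to Insig2 differed by 0.38 (exact permutation p = 0.23, adjusted 0.28).

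**Figure D5:**
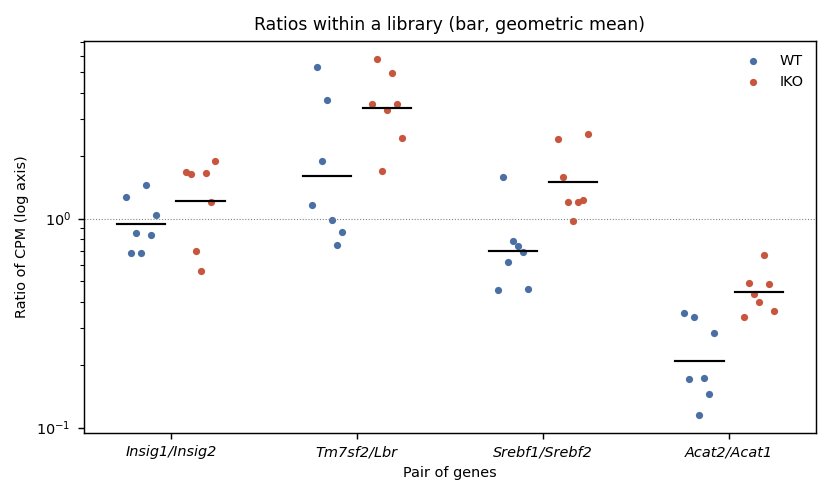
Ratio of CPM on a log axis for 4 pairs of genes in each library (blue, 7 WT; red, 7 IKO), with a black bar at the geometric mean and a dotted line at 1. The IKO points of Acat2/Acat1 and Srebf1/Srebf2 sit above most WT points. Gene length is not taken into account, so the line at 1 marks equal counts only.

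The genes around the pathway were counted in the same fit. Over all genes tested 8.67% passed in either direction, and 0 or 1 gene passing in each list here is near that share. Of 15 genes of the isoprenoid branch, which takes farnesyl and geranylgeranyl diphosphate to ubiquinone, dolichol and prenylated proteins, 0 passed, 8 lay above 0 and the median log2 fold change was 0.05. Unadjusted, 3 had a p under 0.05, against 4213 of all 13846 genes tested. Of 14 genes of the machinery that degrades membrane proteins of the pathway in answer to sterol, 1 passed, Nploc4, a partner of the segregase Vcp, with 47.5 ± 13.0 CPM (SD, n = 7) in WT and 72.9 ± 13.1 CPM (SD, n = 7) in IKO mice (log2 fold change 0.62, adjusted p = 0.0496). Among 13 genes of sterol transfer inside the cell, Gramd1a, which moves cholesterol from the plasma membrane to the endoplasmic reticulum, was lower (23.3 ± 12.0 against 9.55 ± 3.77 CPM, SD, n = 7 each, log2 fold change -1.28, adjusted p = 0.030) and the other 12 did not pass. Of the 5 oxysterol enzymes, Cyp27a1 and Cyp39a1 had enough counts to be tested and neither passed.

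The SREBP1 arm, which makes fatty acids in answer to insulin and LXR, had 6 of 14 genes higher and 0 lower, against 4.38% of all genes higher, with 13 above 0, against 43.5% of all genes, and a median log2 fold change of 0.64. The 4 with the largest differences were Scd1 (5.40), Scd2 (3.48), Me1 (2.16) and Srebf1 (1.64). The difference between this list and the sterol enzymes was not tested.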

How the data were processed

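The deposited counts are whole reads per gene, made by the authors from 150-bp paired-end NovaSeq reads with HISAT2 2.0.5 and featureCounts 1.5.0-p3 on mm10. Strand use and the treatment of reads that fit several genes are not stated. The deposited FPKM are counts per kilobase divided by the size factor of the library, as tested on the values. Genotypes came from the sample titles, and KO columns were read as IKO.

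Genes passing filterByExpr were scaled by TMM and compared with edgeR 4.0.16 (quasi-likelihood test, genotype as the only term) in R 4.3.3, with Benjamini-Hochberg adjustment over 13846 genes. Intervals are at 95%. The paper used DESeq2. Correlations used log2 CPM with a prior count of 2. The code was tested on simulated counts.

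The 26 alternative fits were DESeq2 1.42.0, RLE scaling, no filter, at least 10 counts in every library, limma 3.58.1 on log2(FPKM + 1) and log2(FPKM + 0.1) for genes above 0.5 FPKM in 7 libraries and without that filter, the mouse number as a block, mitochondrially encoded genes removed, each library left out, IKO 4 left out with WT 3 or WT 4, and, added after the data were seen, the GC and length trend removed, which used the longest transcript of 13835 genes. The adjustment over 5 ratios includes 1 that is not reported here. The members, lists and tests were chosen with earlier results of these data known. Named are the 27 genes, Ncor1, the partners in ratios, and up to 4 called genes of each other list.

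Counts per library were 5 to 55 for Fdps, as low as 7 for Idi1 and at least 27 for every other member. The p-values measure the spread between these mice, and the WT and IKO mice were littermates, but which mice shared a litter is not given in the sources used here.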

Additional observations from a re-analysis of the deposited data

Results flagged for a closer look

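Among 62 groups of 7 libraries examined, 6 held a library whose gap to the nearest of the others, as a share of the range, exceeded Dixon's limit for 7 values, where chance gives about 3.1. WT 1 stood above the other WT libraries for Fdft1 (81.6 CPM, the next 49.6, gap 0.590), Msmo1 (119 CPM, the next 65.5, gap 0.634) and Nsdhl (26.9 CPM, the next 17.8, gap 0.599). IKO 4 stood low for Ebp (27.8 CPM, the next 59.5, gap 0.616). IKO 3 stood high for Lbr (31.1 CPM, the next 15.7, gap 0.590), and WT 3 low for Mbtps1 (48.3 CPM, the next 63.0, gap 0.578).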

How the results depend on the processing

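Acat2, Pmvk, Fdft1, Lss, Nsdhl and Insig2 were called in each of the 26 alternative fits. Mvd was lost with the replicate block, Insig1 in limma without a filter, Tm7sf2 in 3 fits, Mvk in 5 and Hmgcs1 in 17, while Cyp51 was gained in 7 and Msmo1 in 6. The number of enzymes called stayed within 1.5 times 9 except with the replicate block (5), and fell to 6 without IKO 5. Circuit genes called were 2 except in limma without a filter (1). Genes called of all genes were 2571 in DESeq2, 508 without a filter in edgeR, 614 without one in limma, 648 without IKO 4 and WT 3, 606 without IKO 4 and WT 4, and 515 (without IKO 5) to 1371 with 1 library left out, 526 without IKO 1, 600 without WT 7, 728 without IKO 2, 746 without WT 4 and 789 without IKO 7.

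The mouse numbers were not used as pairs in the main test, since the sources do not say that they pair the mice. Deviations of mice with the same number correlated between -0.305 and 0.232, and only number 2 was closest to its own number. Such correlations cannot tell whether mice with the same number were paired. The replicate block called 362 genes, and under it the ratios of Srebf1 to Srebf2 and Acat2 to Acat1, still 1.09 and 1.10, had an adjusted p of 0.078 each. Tm7sf2 to Lbr passed without WT 2 (1.36) and without WT 4 (1.27) in a range of 0.88 to 1.36.

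Pairs correlated, 45 in all, were 10 by Spearman's rho, 5 without the 2 farthest libraries, 4 without IKO 4 and WT 3, 4 without IKO 4 and WT 4, 0 within WT, 0 within IKO, and 5 (without IKO 4) to 49 with 1 library left out, 20 without WT 1, 23 without IKO 5 and 27 without WT 3 or IKO 2.

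Some log2 fold changes of genes not called changed sign. Ggps1 was 0.017 without IKO 4 and WT 4, 0.35 with the GC and length trend removed and -0.10 to 0.039 with 1 library left out. Ebp was -0.014 and Mbtps2 0.061 with the trend removed. Lbr was 0.025 and 0.11 in limma at pseudocounts of 1 and 0.1, 0.025 without its filter, 0.044 with the replicate block, 0.036 with the trend removed and -0.46 to 0.088 with 1 library left out. Mbtps1 was -0.033 with at least 10 counts in every library, -0.014 with the replicate block and -0.053 to 0.14 with 1 library left out. The causes were not tested.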

Other observations

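Across the 20 enzymes the WT range was from 1.29-fold to 78.7-fold with a median of 3.13-fold, and the median IKO range was 2.93-fold. Acat3, a neighbour and close copy of Acat2, held 28 counts over the WT and 20 over the IKO libraries, against 2318 and 4312 for Acat2. Tmem97, which binds NPC1 and is known to answer to sterol, had 27.4 ± 9.4 CPM (SD, n = 7) in WT and 44.1 ± 14.5 CPM (SD, n = 7) in IKO mice, with 6 of 7 IKO libraries above the highest WT library (log2 fold change 0.69, adjusted p = 0.11). It was picked for mention after its values were seen. So was Dhdds, of the dolichol branch, whose 7 IKO libraries all lay above the 7 WT libraries (20.7 ± 2.2 against 25.6 ± 3.5 CPM, log2 fold change 0.31, adjusted p = 0.12) as for 1.83% of all genes.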
